A study of Mus musculus with 16 samples.

Results

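The 40 genes described here are interferon-induced genes, together with the interferon lambda receptor chain Ifnlr1. They were picked by name out of 24421 genes in the count files, with earlier results of these data known. All 40 had a row and counts, and all 40 were among the 13429 genes with enough counts for a test. The RNA came from epithelial cells that EDTA released from the jejunum and ileum of wild-type C57BL6/J mice. The mice were at P6 (postnatal day 6, before weaning) or P36 (after weaning). At each age 4 mice gave both regions, so there were 4 groups of 4 libraries and 16 libraries in all. Replicates 1 and 2 were female mice and replicates 3 and 4 male mice, and within an age the same replicate number is the same mouse. No infection, interferon or other treatment was listed for any group. Totals ran from 12159237 to 25947276 counts.

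Levels are given as CPM, counts per 1000000 counts after TMM scaling, in the order of replicates 1 to 4. Differences are log2 fold changes with their SE from edgeR's quasi-likelihood fit of all 16 libraries. P-values were adjusted over all tested genes by the Benjamini-Hochberg method, and a gene was called at an adjusted p below 0.05. In bulk libraries, fewer cells of a type and less RNA per cell cannot be told apart. The epithelial markers Epcam, Vil1, Cdh1, Krt8 and Krt20 had counts in every library, with summed levels between 3661 and 15669.8 CPM. A few libraries stood apart. P6 ileum replicate 2 held stromal and muscle RNA, with 379.9 CPM summed over 8 markers, against 24.7 to 85.6 CPM in the other P6 ileum libraries. P6 ileum replicate 4 had a trend of its deviations on the GC content of transcripts (Spearman's rho across genes -0.775, against -0.231 to 0.491 in the others). P36 jejunum replicates 1 and 3 held 105.3 and 146.9 CPM summed over 10 T cell and intraepithelial lymphocyte markers, against 3.25 to 18.7 CPM elsewhere. The 10 macrophage and dendritic cell markers summed to 422 to 513 CPM in P6 jejunum, 168 to 380 CPM in P6 ileum and 7.02 to 28.7 CPM at P36. Most of the P6 sums was Csf1r. The other 9 summed to 7.88 to 15.2 CPM in P6 jejunum and 16.3 to 46.2 CPM in P6 ileum. At P36 they summed to 6.41 to 25.2 CPM. P6 ileum replicate 2 had the highest of these sums, against 16.3 to 26.1 CPM in the others of its group.

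Interferons are secreted proteins that bind receptors on the cell surface and signal through JAK kinases. Type I and type III interferons activate a complex that holds STAT2 and IRF9 and binds interferon-stimulated response elements (ISRE). Interferon gamma acts through GAS elements. The induced genes code for sensors of viral RNA, for proteins that block viral replication, for GTPases that attack the vacuoles of intracellular pathogens, and for proteins that cut and carry peptides for MHC class I. Type III interferon, whose receptor has Ifnlr1 as its specific chain, is a main antiviral signal of the gut epithelium.

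Promoter windows from RefSeq (GRCm38.p6), from 250 bases before to 50 bases after a transcription start, were found for 31 of the 40 genes. The letters of the ISRE core, GAAANNGAAA or TTTCNNTTTC on the other strand, stood in a window of 16 of these 31 genes, against 3.99% of all 27025 genes with a window. The letters of the GAS element, TTCNNNGAA, which read the same on both strands, stood in 10 of the 31, against 9.55% of all genes. Both were held by 5 genes (Oas1a, Bst2, Gbp7, Irgm2 and Igtp) and neither by 10 (Ifi44, Oasl2, Irf7, Irf9, Trim25, Tap1, Psmb9, Psmb10, Xaf1 and Ifnlr1). The patterns share letters, so that 1 stretch can hold parts of both, and a match describes the sequence and not a bound site. The other 9 genes were Oas2, Usp18, Dhx58, Zbp1, Gbp6, Iigp1, Tap2, Nlrc5 and Parp14.

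The 160 bases before the start are shown for 10 genes, because their levels moved in different directions with age. They are printed 5′ to 3′ on the strand of the gene, with ISRE core and GAS letters in capitals. Ifit1 (chr19:34640729-34640888, plus strand), Ifit3 (chr19:34583369-34583528, plus strand), Rsad2 (chr12:26456453-26456612, minus strand) and Gbp7 (chr3:142530176-142530335, plus strand) were lower at P36 than at P6 in both regions.
Ifit1: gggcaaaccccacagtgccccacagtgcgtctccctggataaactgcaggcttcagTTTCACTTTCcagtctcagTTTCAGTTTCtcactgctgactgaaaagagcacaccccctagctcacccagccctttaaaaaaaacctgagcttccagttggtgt
Ifit3: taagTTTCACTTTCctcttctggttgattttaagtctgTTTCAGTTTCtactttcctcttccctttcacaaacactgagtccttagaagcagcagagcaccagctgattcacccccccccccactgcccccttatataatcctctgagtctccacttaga
Rsad2: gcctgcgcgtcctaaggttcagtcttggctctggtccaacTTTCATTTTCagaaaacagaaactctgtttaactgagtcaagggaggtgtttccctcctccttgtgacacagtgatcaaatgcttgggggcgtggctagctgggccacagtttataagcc
Gbp7: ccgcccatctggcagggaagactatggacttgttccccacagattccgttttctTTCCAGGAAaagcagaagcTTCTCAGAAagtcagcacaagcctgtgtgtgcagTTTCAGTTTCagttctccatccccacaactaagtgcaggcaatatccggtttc
Gbp2 (chr3:142620503-142620662, plus strand), Igtp (chr11:58199396-58199555, plus strand), Psmb8 (chr17:34198035-34198194, plus strand) and Tap1 (chr17:34187396-34187555, plus strand) were higher at P36 in both regions, and Irf1 (chr11:53769854-53770013, plus strand) was higher at P36 in the ileum. The Tap1 window shares 275 bases with that of Psmb9, which is read from the other strand.
Gbp2: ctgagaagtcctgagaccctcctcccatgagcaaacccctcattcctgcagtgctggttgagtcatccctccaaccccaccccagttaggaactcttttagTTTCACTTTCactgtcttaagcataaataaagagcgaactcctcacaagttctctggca
Igtp: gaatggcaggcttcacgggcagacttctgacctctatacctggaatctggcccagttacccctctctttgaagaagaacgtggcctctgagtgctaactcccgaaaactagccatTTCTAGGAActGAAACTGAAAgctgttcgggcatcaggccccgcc
Psmb8: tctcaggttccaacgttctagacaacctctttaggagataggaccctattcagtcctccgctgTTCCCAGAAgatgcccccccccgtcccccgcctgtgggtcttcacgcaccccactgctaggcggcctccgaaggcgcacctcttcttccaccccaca
Tap1: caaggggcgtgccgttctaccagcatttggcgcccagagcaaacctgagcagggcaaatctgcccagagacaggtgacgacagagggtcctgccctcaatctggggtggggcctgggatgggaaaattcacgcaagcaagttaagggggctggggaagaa
Irf1: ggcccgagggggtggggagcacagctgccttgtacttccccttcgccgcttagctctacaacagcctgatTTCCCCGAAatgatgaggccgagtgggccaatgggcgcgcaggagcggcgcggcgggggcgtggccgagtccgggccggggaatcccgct
Isg15 (chr4:156200819-156200978, minus strand) was called in neither region with age and holds 3 ISRE cores that overlap.
Isg15: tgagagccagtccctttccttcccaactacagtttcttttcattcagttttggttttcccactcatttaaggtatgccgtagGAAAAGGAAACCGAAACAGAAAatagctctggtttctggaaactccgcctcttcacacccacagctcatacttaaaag
Of the genes shown, ISRE letters stand in Ifit1, Ifit3, Rsad2 and Gbp7, which fell with age, and in Gbp2 and Igtp, which rose. These genes were picked for their different directions, so that both directions occur here was set by the choice. Of the genes with ISRE letters that are not shown, Stat2, Bst2 and Ddx58 fell in both regions and Gbp3 fell in the jejunum. Oas3 and Irgm1 rose in both regions, and Oas1a, Ifih1 and Irgm2 were called in neither region. GAS letters stand in Gbp7, which fell, and in Igtp, Psmb8 and Irf1. Of the genes with GAS letters that are not shown, Ifit2 and Bst2 fell in both regions. Irf8 and Ifi35 rose in the ileum, and Oas1a and Irgm2 were called in neither region.

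The 40 genes were together higher in the jejunum than in the ileum at both ages, whereas with age some rose and others fell. Their mean level, as log2 (CPM + 1) over the 40 genes, was 5.64 ± 0.20 (SD, n = 4) for P6 jejunum and 4.48 ± 0.39 for P6 ileum. At P36 it was 5.26 ± 0.48 for jejunum and 4.66 ± 0.54 for ileum. All P6 jejunum libraries (5.60, 5.92, 5.46 and 5.57) lay above all P6 ileum libraries (4.46, 5.04, 4.20 and 4.20). At P36 the jejunum (5.35, 5.90, 4.83 and 4.96) and the ileum (5.30, 4.91, 4.32 and 4.14) overlapped between mice, although the jejunum was above the ileum in each mouse. These means are a description and carry no test.

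**Figure D1:**
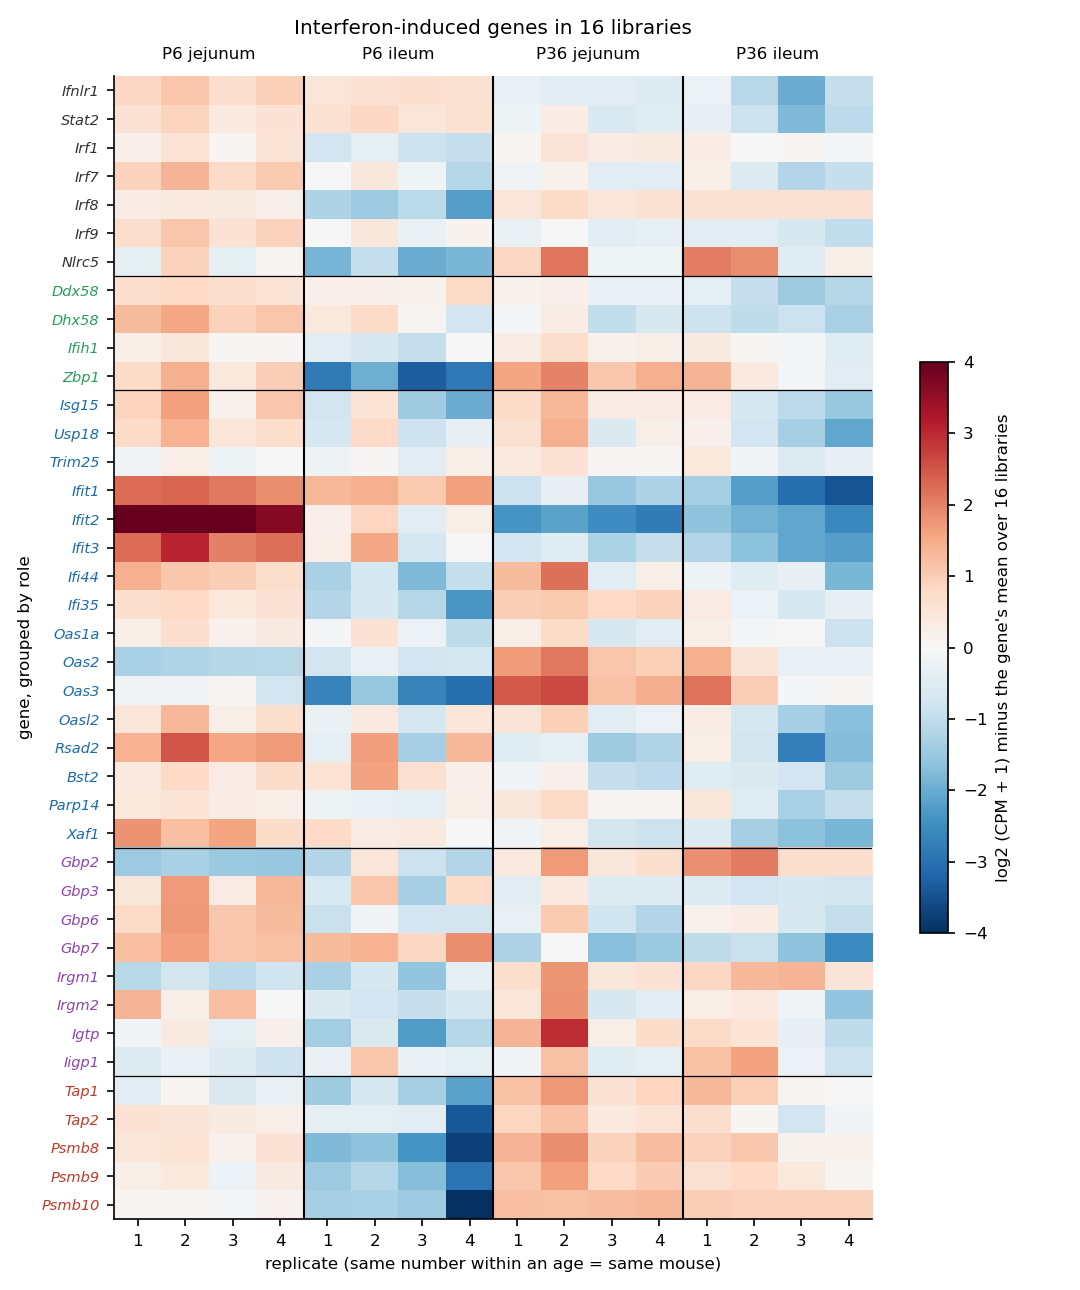
Level of each of the 40 genes in each of the 16 libraries, as log2 (CPM + 1) minus the gene's own mean over the libraries (red above, blue below), with genes grouped and coloured by role. Ifit2 is high in P6 jejunum, the class I peptide genes at the bottom are low in P6 ileum and lowest in its replicate 4, and P36 jejunum replicate 2 is above the gene's mean in most rows.

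From P6 to P36 in the jejunum, 9 of the 40 genes rose and 15 fell. Of all tested genes, 24.7% rose and 26.9% fell. In the ileum 14 of the 40 rose and 12 fell, where 25.5% of all tested genes rose and 30.1% fell. The 9 that rose in the jejunum and the 12 that fell in the ileum were close to the shares of all genes. The 15 that fell in the jejunum and the 14 that rose in the ileum were above those shares. No test compared them. Their median log2 fold change was -0.10 in the jejunum and 0.23 in the ileum, against -0.01 and -0.03 for all genes. Single genes ranged from -7.14 (Ifit2) to 4.96 (Gbp2) in the jejunum and from -3.70 (Ifit1) to 4.08 (Oas3) in the ileum. With a log2 fold change beyond 2 as well, 3 rose and 5 fell in the jejunum (7.86% and 8.59% of all genes). In the ileum 9 rose and 4 fell by this rule (6.40% and 10.0%). The count of 9 that rose in the jejunum went to 5 without P36 jejunum replicate 2, a fit for which the share of all genes is not given.

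Both regions came from the same mice. All 9 genes that rose in the jejunum rose in the ileum, namely Oas2, Oas3, Gbp2, Irgm1, Igtp, Tap1, Psmb8, Psmb9 and Psmb10. All 12 that fell in the ileum fell in the jejunum, namely Ifnlr1, Stat2, Irf9, Ddx58, Dhx58, Ifit1, Ifit2, Ifit3, Rsad2, Bst2, Xaf1 and Gbp7. For all tested genes, 71.9% of those that rose in the jejunum rose in the ileum, and 70.7% of those that fell in the ileum fell in the jejunum. Counted the other way, 64.3% of the members that rose in the ileum rose in the jejunum, and 80.0% of those that fell in the jejunum fell in the ileum. These shares were close to the 69.5% and 79.1% of all tested genes. Irf7, Gbp3 and Gbp6 were called lower at P36 in the jejunum and not in the ileum. Irf1, Irf8, Nlrc5, Zbp1 and Ifi35 were called higher at P36 in the ileum and not in the jejunum. Of these 8, the change with age differed between the regions by the interaction test for Irf1, Irf8 and Zbp1. With the mouse as a fixed block it did so also for Gbp6 (adjusted p = 0.00359) and Nlrc5 (adjusted p = 0.00307). With a random mouse term (limma), Gbp6 was called (adjusted p = 0.0266) and Nlrc5 was not (adjusted p = 0.104). The other 11 genes (Isg15, Usp18, Trim25, Ifi44, Oas1a, Oasl2, Parp14, Ifih1, Irgm2, Iigp1 and Tap2) were called in neither region.

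**Figure D2:**
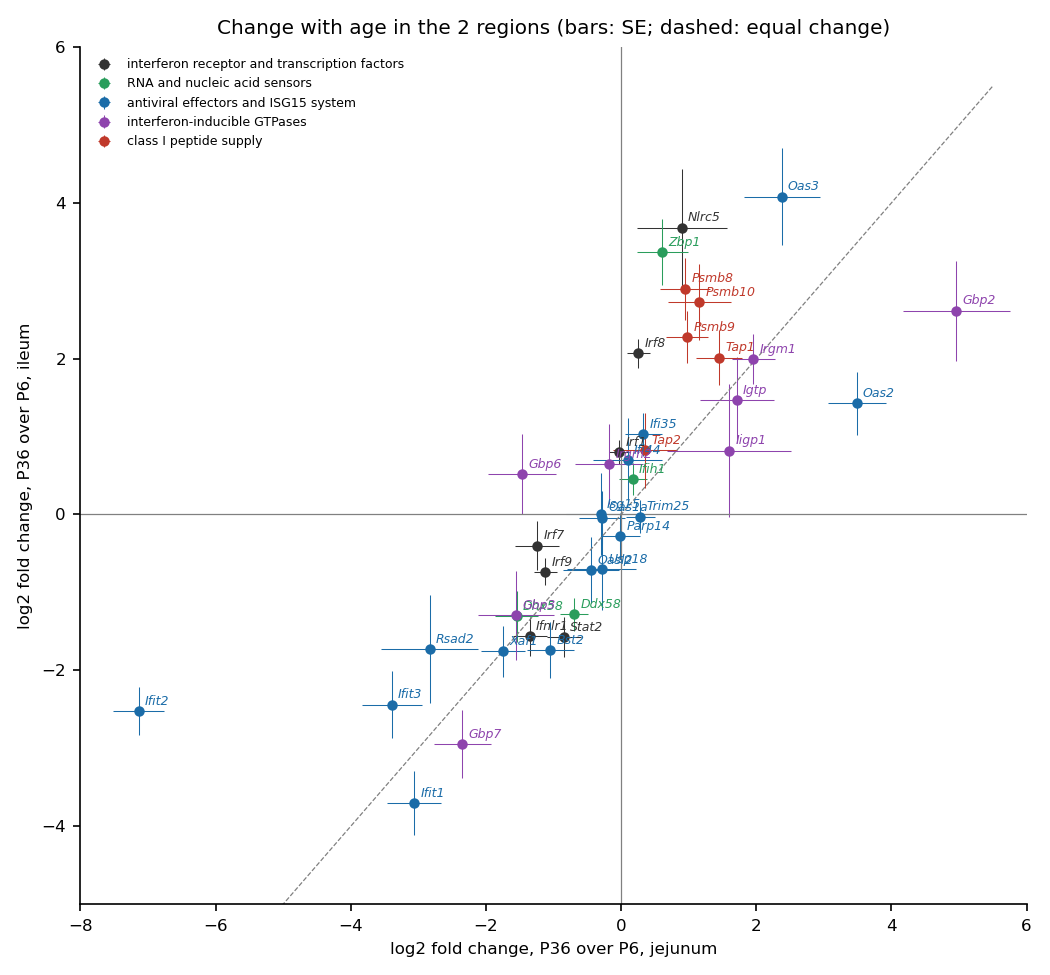
Log2 fold change from P6 to P36 in the jejunum (x axis) and the ileum (y axis) for the 40 genes, coloured by role, with bars of 1 SE and a dashed line of equal change. Genes at the lower left fell in both regions and genes at the upper right rose in both, Ifit2 lies farthest to the left at -7.14, and the class I peptide genes lie above the line.

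Between the regions at P6, 21 of the 40 genes were higher in the jejunum and 1, Gbp2, was higher in the ileum. Of all tested genes 11.1% were called towards the jejunum and 14.8% towards the ileum. The median log2 fold change (jejunum over ileum) of the 40 genes was 1.03, against -0.05 for all genes, and 33 of the 40 were above 0. Beyond a log2 fold change of 2, the counts were 7 and 1 (2.20% and 4.30% of all genes). Within mice, 31 of the 40 genes were higher in the jejunum in all 4 mice, against 22.8% of all tested genes. With the mouse as a fixed block, which removes differences between mice, all 21 were still called. They include Isg15, Dhx58, Ifih1, Xaf1, Irgm2 and Tap1, whose calls without a block were lost in some fits without 1 library. The block added Oasl2, Usp18, Rsad2, Gbp3, Igtp and Tap2 to the genes higher in the jejunum and Oas2 to those higher in the ileum. With a random mouse term (limma), Oasl2 (adjusted p = 0.145), Gbp3 (0.0549), Oas2 (0.183) and Gbp2 (0.0674) were not called. P6 ileum replicate 2, with its stromal RNA, had the highest mean level of its group. Without it the counts were 19 towards the jejunum and 0 towards the ileum. Without P6 ileum replicates 2 and 4, a choice made after the data were seen, the counts were 21 and 0. Gbp2 then had log2 fold changes of -1.66 (adjusted p = 0.0885) and -1.83 (adjusted p = 0.125). Shares of all tested genes are not given for the fits without these libraries.

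At P36, 5 of the 40 genes were higher in the jejunum (Ddx58, Ifit1, Ifi44, Ifi35 and Xaf1) and 0 in the ileum. Of all tested genes 8.30% and 7.80% were called in these directions. By edgeR at an unadjusted p below 0.05 the counts were 17 and 0 (14.1% and 14.9% of all genes), and DESeq2 called 11 and 0 (10.1% of all genes in each direction). The median log2 fold change was 0.66, against -0.04 for all genes, and 34 of the 40 were above 0. No member passed a log2 fold change of 2 in either direction (2.06% and 1.55% of all genes did). In all 4 mice, 20 of the 40 genes were higher in the jejunum, against 22.5% of all genes. With the mouse as a block, 15 genes were called higher in the jejunum (9.84% of all genes). The 10 added were Isg15, Ifit3, Oas2, Oas3, Oasl2, Stat2, Usp18, Zbp1, Igtp and Parp14, with adjusted p between 0.00795 and 0.0310. With a correction for GC content beside the block, added after the data were seen, 24 were called (15.8% of all genes). Without a block the count rested on single libraries. It was 2 without P36 jejunum replicate 2, and 3 without P36 jejunum replicate 1 or P36 ileum replicate 2, 3 or 4. It was 9 without P36 jejunum replicate 3 and 16 without P36 ileum replicate 1. Shares of all tested genes are not given for these fits, so the counts cannot be set against them.

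**Figure D3:**
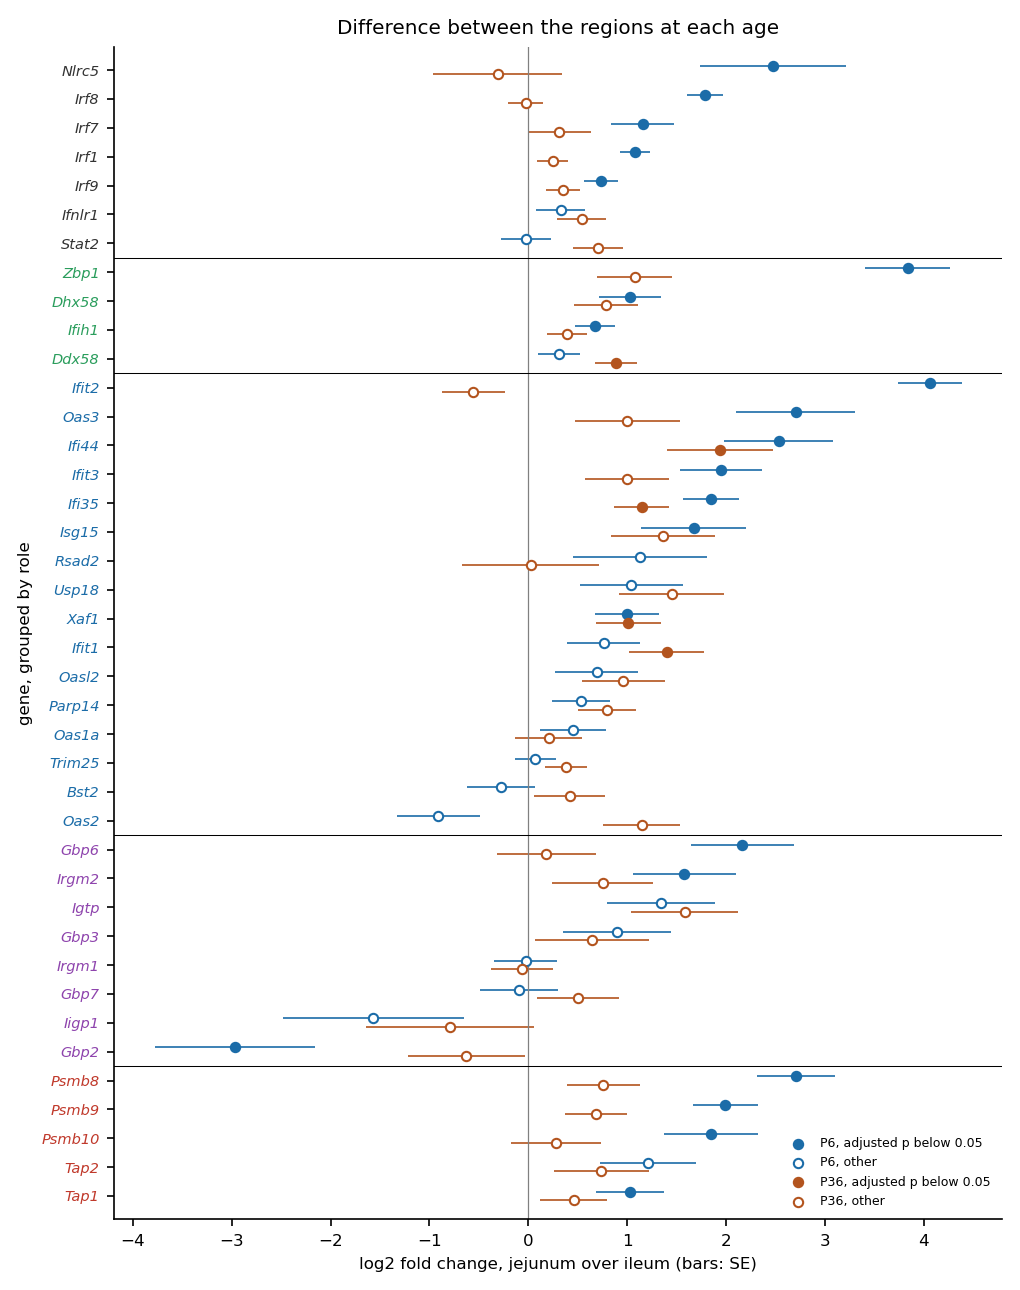
Log2 fold change of the jejunum over the ileum at P6 (blue) and P36 (brown) for the 40 genes by role, with bars of 1 SE, where filled points had an adjusted p below 0.05. At P6 most points lie right of 0, with Ifit2 (4.06) and Zbp1 (3.84) farthest, and at P36 all points lie within 2 of 0.

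The regional difference itself differed between P6 and P36 for 6 of the 40 genes by the interaction test, against 8.69% of all tested genes. Ifit2, Zbp1, Psmb8, Irf8 and Irf1 leaned more towards the jejunum at P6 than at P36, and Oas2 more towards the ileum. The count was 3 without P6 jejunum replicate 2, P6 jejunum replicate 4 or P36 jejunum replicate 1. The share of all genes is not given for those fits. With the GC correction and the mouse as a block it was 14 (19.0% of all genes). Without a block, Ifi44, Ifi35 and Xaf1 were called higher in the jejunum at both ages. The call was made for 18 genes at P6 and not at P36, and for Ddx58 and Ifit1 at P36 and not at P6. A call at 1 age only is not a difference between ages. By the interaction test without a block, only Ifit2, Zbp1, Psmb8, Irf8 and Irf1 of the 18 differed between ages. With the mouse as a fixed block, Isg15, Ifit3, Oas3 and Zbp1 of the 18 were also called at P36 (adjusted p = 0.0197, 0.0132, 0.0310 and 0.00821). With a random mouse term (limma) Ifit3 was not (adjusted p = 0.121).

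Among the 7 receptor and transcription factor genes, 4 fell in the jejunum with age (26.9% of all tested genes). In the ileum 3 rose and 3 fell (25.5% and 30.1%). Ifnlr1, Stat2 and Irf9 fell in both regions, the latter 2 coding for parts of the complex that binds ISRE. Ifnlr1 stood at 86.7, 105, 78.9 and 94.2 CPM in P6 jejunum and 68.5, 72.1, 77.1 and 73.4 CPM in P6 ileum. At P36 it stood at 38.7, 35.9, 35.2 and 33.2 CPM in the jejunum and 40.7, 22.00, 11.5 and 24.3 CPM in the ileum. Every P36 library was below every P6 library of its region. The log2 fold change with age was -1.35 ± 0.25 (adjusted p = 0.000298) in the jejunum and -1.56 ± 0.25 (adjusted p = 7.97e-05) in the ileum. Stat2 measured 177, 216, 154 and 177 CPM in P6 jejunum and 179.5, 209.6, 165 and 180.0 CPM in P6 ileum. After weaning it measured 102, 142, 76.4 and 82.5 CPM in the jejunum and 93.5, 63.6, 33.7 and 56.03 CPM in the ileum. Here too the ages did not overlap in either region. It changed by -0.84 ± 0.25 (adjusted p = 0.0106) in the jejunum, a call lost without P36 jejunum replicate 3 (adjusted p = 0.0650), and by -1.57 ± 0.26 (adjusted p = 8.48e-05) in the ileum.

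Irf9 had 112, 148, 104 and 129 CPM in P6 jejunum and 69.4, 93.7, 56.7 and 75.4 CPM in P6 ileum. By P36 it had 56.1, 66.9, 51.2 and 51.8 CPM in the jejunum and 49.2, 50.1, 43.6 and 34.3 CPM in the ileum. The ages did not overlap in either region, and the regions did not overlap at either age. The change with age was -1.12 ± 0.17 (adjusted p = 5.03e-05) in the jejunum and -0.74 ± 0.17 (adjusted p = 0.00184) in the ileum. At P6 Irf9 was also higher in the jejunum, by 0.74 ± 0.17 (adjusted p = 0.00475).

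Irf8 and Irf1, factors that act downstream of interferon gamma, were low in P6 ileum alone. Irf8 had 128, 134, 134 and 119 CPM in P6 jejunum and 42.6, 37.1, 48.1 and 21.7 CPM in P6 ileum, against 144, 170.1, 144 and 156 CPM in P36 jejunum and 156, 157, 155 and 158 CPM in P36 ileum. It rose in the ileum by 2.07 ± 0.18 (adjusted p = 1.29e-07), while its change in the jejunum of 0.26 ± 0.18 (adjusted p = 0.24) was not called. The interaction was 1.81 ± 0.25 (adjusted p = 0.000293). The 10 macrophage and dendritic cell markers summed to less in P6 ileum (168 to 380 CPM) than in P6 jejunum (422 to 513 CPM), as Irf8 did. That order was due to Csf1r. Without Csf1r the order was the reverse, with 16.3 to 46.2 CPM in P6 ileum and 7.88 to 15.2 CPM in P6 jejunum. In P36 ileum, where Irf8 was high, all 10 summed to 7.02 to 12.9 CPM. The part of such cells in the Irf8 result was not tested. Irf1 was also lowest in P6 ileum, with smaller differences. It had 214, 272, 195 and 268 CPM in P6 jejunum and 109, 139.7, 104 and 95.8 CPM in P6 ileum, and 197, 262, 231 and 236 CPM in P36 jejunum and 226, 187, 194 and 174 CPM in P36 ileum. Its interaction of 0.83 ± 0.22 (adjusted p = 0.0252) was lost without P6 jejunum replicate 2 or 4 or P36 jejunum replicate 1 or 3 (adjusted p up to 0.0592).

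Irf7, which amplifies the type I response, fell in the jejunum with age (-1.24 ± 0.32, adjusted p = 0.00419), and in the ileum its value was -0.40 ± 0.32 (adjusted p = 0.3). Nlrc5, the transactivator of MHC class I genes, is given in every library by a choice made after its values were seen. It had 3.88, 11.02, 3.94 and 5.84 CPM in P6 jejunum and 0.740, 2.24, 0.597 and 0.785 CPM in P6 ileum. After weaning it had 10.1, 26.8, 4.53 and 4.58 CPM in the jejunum and 25.1, 21.9, 3.51 and 6.49 CPM in the ileum. It rose in the ileum by 3.68 ± 0.76 (adjusted p = 0.000665). At P36 the male mice (replicates 3 and 4) were the 2 lowest in both regions.

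Of the 4 nucleic acid sensors, Ddx58 and Dhx58 fell with age in both regions and Zbp1 rose in the ileum. Zbp1, which binds nucleic acids in the Z form, had 60.3, 96.1, 48.00 and 71.3 CPM in P6 jejunum and 4.15, 8.36, 2.71 and 3.97 CPM in P6 ileum. The P36 libraries had 108, 141, 75.1 and 95.9 CPM in the jejunum and 93.1, 47.1, 33.1 and 26.1 CPM in the ileum. The P6 ileum libraries lay below all others. Jejunum over ileum, the log2 fold change was 3.84 ± 0.43 (adjusted p = 9.49e-06) at P6 and 1.08 ± 0.38 (adjusted p = 0.0679) at P36, and the interaction was 2.76 ± 0.55 (adjusted p = 0.00471). No fit without 1 library lost the interaction calls of Zbp1, Irf8 and Ifit2.

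Ddx58 (RIG-I) and Dhx58 (LGP2) are receptors for viral RNA in the cytoplasm. Ddx58 had 149, 162, 147 and 135 CPM in P6 jejunum and 108, 108, 104 and 159 CPM in P6 ileum. By P36 it had 103, 108, 77.3 and 77.9 CPM in the jejunum and 72.7, 48.9, 33.9 and 42.02 CPM in the ileum. The ages did not overlap in either region, and at P36 the jejunum lay above the ileum (0.89 ± 0.21, adjusted p = 0.00866). The change with age was -0.70 ± 0.21 (adjusted p = 0.0109) in the jejunum, lost without P36 jejunum replicate 3 (adjusted p = 0.0691), and -1.28 ± 0.21 (adjusted p = 0.000102) in the ileum. Dhx58 had 42.8, 52.8, 33.8 and 38.8 CPM in P6 jejunum and 23.6, 30.4, 18.8 and 9.71 CPM in P6 ileum, and 16.9, 21.6, 8.31 and 10.7 CPM in P36 jejunum and 9.40, 8.17, 9.19 and 6.49 CPM in P36 ileum. Both regions fell, with log2 fold changes of -1.55 ± 0.32 (adjusted p = 0.000809) and -1.31 ± 0.32 (adjusted p = 0.00291). Its higher level in P6 jejunum than in P6 ileum (1.03 ± 0.32, adjusted p = 0.0256) was lost without P6 jejunum replicate 1 or 2 or P6 ileum replicate 3.

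Ifih1 (MDA5), the third receptor of this family, was not called with age. It had 97.9, 114, 86.9 and 86.4 CPM in P6 jejunum and 61.01, 53.3, 43.7 and 83.5 CPM in P6 ileum, and 104, 137, 94.8 and 98.5 CPM in P36 jejunum and 107, 85.6, 79.4 and 59.1 CPM in P36 ileum. The P6 difference between the regions (0.67 ± 0.21, adjusted p = 0.025) was lost in 5 of the 8 fits without 1 library, those without P6 jejunum replicate 1 or 2 or P6 ileum replicate 1, 2 or 3.

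Among 16 antiviral effectors and genes of the ISG15 system, 2 rose and 6 fell in the jejunum with age (24.7% and 26.9% of all tested genes). In the ileum 3 rose and 6 fell (25.5% and 30.1%). The 3 IFIT genes, which bind foreign RNA and limit its translation, fell in both regions. Ifit2 had 537, 513, 385 and 277 CPM in P6 jejunum and 23.9, 38.6, 15.2 and 24.7 CPM in P6 ileum. By P36 it was down to 3.24, 3.88, 2.83 and 2.13 CPM in the jejunum and 6.03, 4.88, 4.17 and 2.61 CPM in the ileum. The lowest P6 jejunum library (277 CPM) stood far above the highest library of any other group (38.6 CPM). The change with age was -7.14 ± 0.38 (adjusted p = 3.35e-10) in the jejunum and -2.52 ± 0.31 (adjusted p = 4.91e-06) in the ileum. Jejunum over ileum, Ifit2 measured 4.06 ± 0.32 (adjusted p = 2.71e-07) at P6 and -0.56 ± 0.31 (adjusted p = 0.268) at P36, with an interaction of 4.62 ± 0.44 (adjusted p = 8.01e-06).

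Ifit1 was high in both regions at P6. It had 549.6, 585, 501 and 425 CPM in P6 jejunum and 295, 311, 242 and 367 CPM in P6 ileum. After weaning it had 64.6, 93.3, 39.8 and 48.8 CPM in the jejunum and 45.9, 24.4, 13.5 and 9.66 CPM in the ileum. The log2 fold changes with age were -3.06 ± 0.40 (adjusted p = 9.00e-06) in the jejunum and -3.70 ± 0.41 (adjusted p = 1.64e-06) in the ileum. Its higher level in P36 jejunum (1.40 ± 0.38, adjusted p = 0.019) was lost without P36 jejunum replicate 2 or P36 ileum replicate 3. Ifit3 had 97.98, 173, 84.96 and 96.4 CPM in P6 jejunum and 24.2, 60.6, 11.9 and 20.4 CPM in P6 ileum, and 11.4, 13.9, 7.86 and 9.81 CPM in P36 jejunum and 8.29, 5.73, 3.96 and 3.56 CPM in P36 ileum. With age it changed by -3.39 ± 0.44 (adjusted p = 8.97e-06) and -2.44 ± 0.43 (adjusted p = 0.000192), and no library of 1 age reached those of the other. The IFIT, OAS and GBP families hold near-identical copies with rows of their own, and reads that match several places were left out of the counts, so the counts of these genes are uncertain to that extent.

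**Figure D4:**
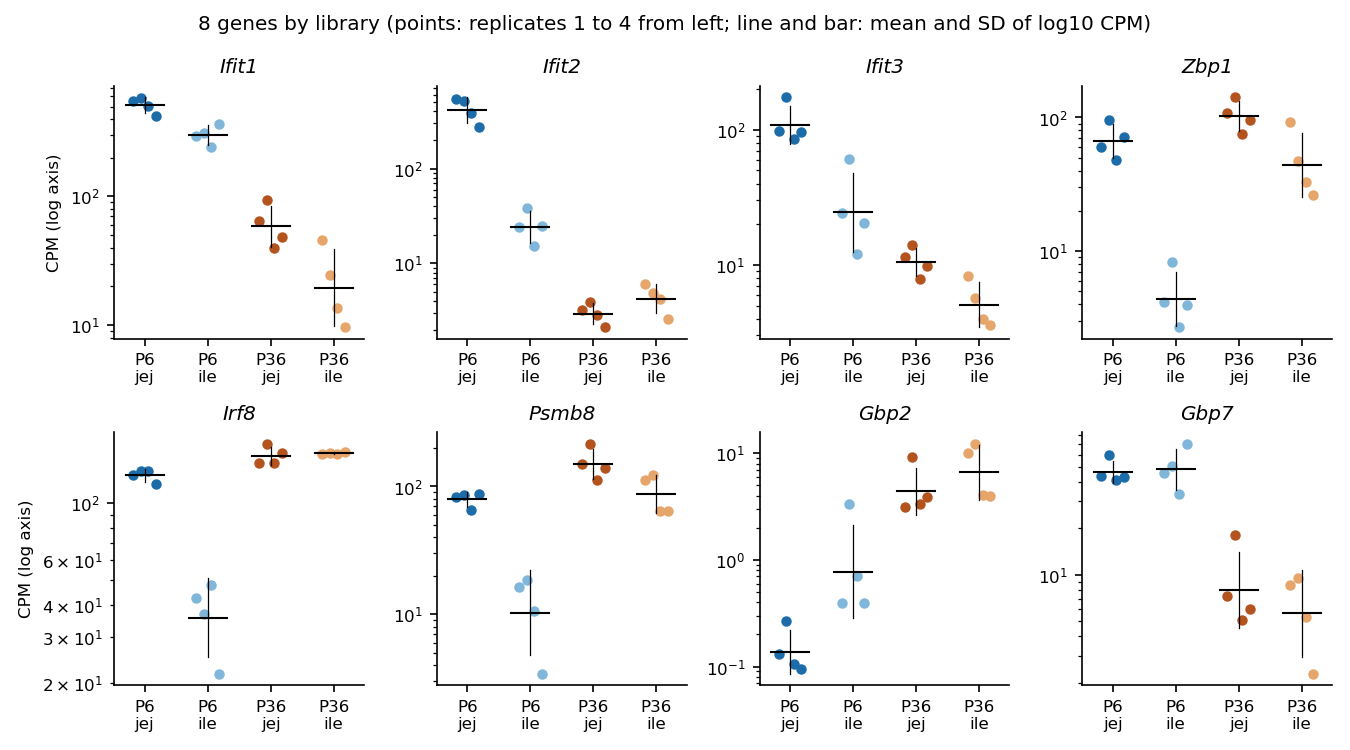
CPM on a log axis of 8 genes in the 4 groups, with a point for each library (replicates 1 to 4 from the left), a line at the mean of log10 CPM and a bar of 1 SD of log10 CPM. Ifit1, Ifit2, Ifit3 and Gbp7 are lower at P36 than at P6, Zbp1, Irf8 and Psmb8 are lowest in P6 ileum, and Gbp2 is lowest in P6 jejunum.

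Per kilobase of exon, Ifit1 had the highest mean level of the 40 genes in both P6 groups, with 195.2 CPM per kb in the jejunum and 115.2 in the ileum. At P36 Psmb10 was highest in both regions, with 179.5 and 148.0 CPM per kb.

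The oligoadenylate synthetases, which make the messenger that activates RNase L, had no member called lower at P36. Oas2 was low at P6, with 1.09, 1.20, 1.31 and 1.39 CPM in the jejunum and 2.07, 3.14, 2.01 and 2.16 CPM in the ileum. At P36 it reached 15.7, 21.3, 10.1 and 8.95 CPM in the jejunum and 12.7, 6.29, 3.19 and 3.17 CPM in the ileum. The rise was 3.49 ± 0.43 (adjusted p = 5.38e-06) in the jejunum and 1.43 ± 0.40 (adjusted p = 0.0068) in the ileum, and the ages did not overlap. With the mouse as a fixed block, Oas2 was higher in the ileum at P6 (adjusted p = 0.0439) and higher in the jejunum at P36 (adjusted p = 0.00795). With a random mouse term (limma) the P6 difference was not called (adjusted p = 0.183) and the P36 difference was (adjusted p = 0.00737). Without a block neither was called (adjusted p = 0.125 and 0.0554). The interaction of -2.06 ± 0.57 (adjusted p = 0.035) was lost in 10 of 16 fits without 1 library (largest adjusted p = 0.0751). These were each P6 jejunum library, P6 ileum replicate 2, P36 jejunum replicates 1 and 2, and P36 ileum replicates 2, 3 and 4. Oas3 rose in both regions, by 2.38 ± 0.56 (adjusted p = 0.00211) and 4.08 ± 0.62 (adjusted p = 4.58e-05). Oas1a changed by -0.29 ± 0.34 (adjusted p = 0.507) and -0.04 ± 0.34 (adjusted p = 0.931), and Oasl2 by -0.45 ± 0.42 (adjusted p = 0.397) and -0.71 ± 0.42 (adjusted p = 0.16).

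Rsad2 (viperin), Bst2 (tetherin, which holds budding virions to the cell) and Xaf1, which is linked to apoptosis, fell in both regions. Rsad2 changed by -2.83 ± 0.72 (adjusted p = 0.00369) in the jejunum and -1.73 ± 0.70 (adjusted p = 0.0459) in the ileum. The ileal call was lost without P6 ileum replicate 2 or 4 or P36 ileum replicate 2, 3 or 4. For Bst2 the values were -1.05 ± 0.35 (adjusted p = 0.0202) and -1.74 ± 0.36 (adjusted p = 0.000695). Its jejunal call was lost without P6 jejunum replicate 2 or P36 jejunum replicate 3 or 4. Xaf1 changed by -1.75 ± 0.33 (adjusted p = 0.000337) and -1.76 ± 0.33 (adjusted p = 0.000333).

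Xaf1, Ifi44 and Ifi35 were higher in the jejunum at both ages. Ifi44 differed by 2.53 ± 0.55 (adjusted p = 0.00301) at P6 and 1.93 ± 0.54 (adjusted p = 0.0214) at P36, and Ifi35 by 1.85 ± 0.28 (adjusted p = 0.000172) and 1.15 ± 0.28 (adjusted p = 0.00939). At P36 the call of Ifi44 was lost without P36 jejunum replicate 1 or 2 or P36 ileum replicate 2 or 4, and that of Xaf1 in those 4 cases and without P36 ileum replicate 3. At P6 the call of Xaf1 was lost without P6 jejunum replicate 1 or 3 or P6 ileum replicate 2, 3 or 4.

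Isg15 (a ubiquitin-like modifier), its protease Usp18, the ubiquitin ligase Trim25 and the ADP-ribosyltransferase Parp14 had no call with age. Their log2 fold changes lay between -0.30 (Isg15) and 0.28 (Trim25) in the jejunum and between -0.70 (Usp18) and 0.01 (Isg15) in the ileum. At P6 Isg15 was higher in the jejunum by 1.67 ± 0.53 (adjusted p = 0.0295). That call was lost without P6 jejunum replicate 2 or 4 or P6 ileum replicate 1, 3 or 4. With the mouse as a fixed block it was kept (adjusted p = 0.00439), and with only the 8 libraries compared it was not (adjusted p = 0.0792).

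The 8 interferon-inducible GTPases, some of which gather on pathogen vacuoles, included 3 that rose and 3 that fell in the jejunum (24.7% and 26.9% of all tested genes). In the ileum 3 rose and 1 fell (25.5% and 30.1%). Gbp7 had 43.5, 59.6, 41.1 and 42.9 CPM in P6 jejunum and 45.6, 50.5, 33.5 and 70.3 CPM in P6 ileum. At P36 it had 7.30, 18.1, 5.12 and 6.02 CPM in the jejunum and 8.63, 9.53, 5.31 and 2.295 CPM in the ileum. With age Gbp7 changed by -2.35 ± 0.42 (adjusted p = 0.000227) in the jejunum and -2.95 ± 0.44 (adjusted p = 3.23e-05) in the ileum. Gbp2, from the same cluster, moved the other way. At P6 it had 0.131, 0.268, 0.105 and 0.0958 CPM in the jejunum and 0.395, 3.36, 0.705 and 0.392 CPM in the ileum. By P36 it had 3.12, 9.27, 3.32 and 3.89 CPM in the jejunum and 10.1, 12.2, 4.04 and 3.96 CPM in the ileum. Its counts in P6 jejunum were 3, 6, 2 and 2, so the jejunal fold change depends on the prior count of the fit. The values were 4.96 ± 0.80 (adjusted p = 7.74e-05) in the jejunum and 2.62 ± 0.64 (adjusted p = 0.00269) in the ileum. P6 ileum replicate 2, which held stromal RNA, had the highest Gbp2 level of the P6 libraries. It also had the highest macrophage and dendritic cell marker sum of its group. The part of RNA from such cells in the Gbp2 level was not tested.

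Irgm1 had 14.4, 19.2, 15.3 and 18.3 CPM in P6 jejunum and 12.6, 20.4, 10.1 and 25.3 CPM in P6 ileum. After weaning it had 53.9, 113, 45.1 and 49.5 CPM in the jejunum and 59.05, 81.3, 85.3 and 47.2 CPM in the ileum. The ages did not overlap, and the rise was 1.96 ± 0.33 (adjusted p = 0.000108) in the jejunum and 1.99 ± 0.33 (adjusted p = 8.59e-05) in the ileum. Gbp6 had 8.99, 18.8, 11.6 and 13.4 CPM in P6 jejunum and 2.17, 4.44, 2.49 and 2.60 CPM in P6 ileum, and 3.82, 11.2, 2.42 and 1.65 CPM in P36 jejunum and 5.69, 6.24, 2.82 and 2.06 CPM in P36 ileum. It was higher in the jejunum at P6 (2.17 ± 0.52, adjusted p = 0.00579), and all P6 jejunum libraries lay above all P6 ileum libraries. Its fall in the jejunum (-1.46 ± 0.50, adjusted p = 0.0231) was lost without P6 jejunum replicate 2 or P36 jejunum replicate 1, 3 or 4.

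Igtp rose by 1.71 ± 0.54 (adjusted p = 0.0149) in the jejunum and 1.47 ± 0.55 (adjusted p = 0.0319) in the ileum. Its highest library was P36 jejunum replicate 2 at 193 CPM, without which the jejunal call was lost (adjusted p = 0.131). The ileal call was lost without P6 ileum replicate 1, 3 or 4 or P36 ileum replicate 1 or 2. Gbp3 fell in the jejunum (-1.55 ± 0.56, adjusted p = 0.029), a call lost without P6 jejunum replicate 2 or 4 or P36 jejunum replicate 1, 3 or 4. Irgm2 was higher in the jejunum at P6 (1.58 ± 0.52, adjusted p = 0.0352), which was lost without P6 jejunum replicate 1 or 3 or P6 ileum replicate 1, 2 or 3. Iigp1 was not called in any comparison.

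Of the 5 genes that supply peptides to MHC class I, 4 rose with age in each region (24.7% and 25.5% of all tested genes). The same 4 were higher in P6 jejunum than in P6 ileum (11.1%). Psmb8, Psmb9 and Psmb10 code for the catalytic subunits of the immunoproteasome, and Tap1 and Tap2 for the transporter that carries peptides into the endoplasmic reticulum. The median log2 fold change of the 5 with age was 0.97 in the jejunum and 2.28 in the ileum. Psmb8 had 82.3, 85.1, 65.4 and 87.9 CPM in P6 jejunum and 16.4, 18.5, 10.6 and 3.43 CPM in P6 ileum. The P36 libraries had 151, 215, 112 and 139 CPM in the jejunum and 112, 124, 64.7 and 64.8 CPM in the ileum. The P6 ileum libraries lay below all others. The rise was 0.95 ± 0.37 (adjusted p = 0.0426) in the jejunum and 2.90 ± 0.40 (adjusted p = 1.51e-05) in the ileum, with an interaction of 1.95 ± 0.53 (adjusted p = 0.031). That interaction was lost in 8 of 16 fits without 1 library, with adjusted p up to 0.0754 (P6 jejunum replicates 1, 2 and 4, P6 ileum replicate 3, P36 jejunum replicates 1, 3 and 4, and P36 ileum replicate 2).

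Psmb9 had 40.3, 46.9, 29.4 and 44.3 CPM in P6 jejunum and 11.8, 15.2, 9.82 and 3.53 CPM in P6 ileum, and 74.9, 109, 60.9 and 70.9 CPM in P36 jejunum and 52.7, 60.1, 46.2 and 37.04 CPM in P36 ileum. Its rise was 0.97 ± 0.32 (adjusted p = 0.0169) in the jejunum and 2.28 ± 0.33 (adjusted p = 2.72e-05) in the ileum. Psmb10 had 104, 104, 91.4 and 109 CPM in P6 jejunum and 37.8, 38.7, 34.6 and 2.55 CPM in P6 ileum, and 223, 218, 230.2 and 240.2 CPM in P36 jejunum and 195, 186, 185 and 186 CPM in P36 ileum. It rose by 1.16 ± 0.46 (adjusted p = 0.0466) and 2.73 ± 0.49 (adjusted p = 0.000205). For both genes the 4 groups did not overlap between ages or between regions. Tap1 had 46.3, 66.7, 41.9 and 50.7 CPM in P6 jejunum and 22.95, 40.02, 24.6 and 13.5 CPM in P6 ileum. By P36 it had 143, 209, 95.01 and 115 CPM in the jejunum and 155, 122, 67.9 and 63.6 CPM in the ileum. It rose by 1.45 ± 0.34 (adjusted p = 0.0023) and 2.01 ± 0.35 (adjusted p = 0.000163). The jejunal rises of the proteasome subunits were near the threshold. That of Psmb8 was kept without P36 jejunum replicate 3 and lost without any other of the 8 libraries (adjusted p up to 0.134). That of Psmb10 was lost in all 8 such fits (up to 0.0984 adjusted), and that of Psmb9 without P6 jejunum replicate 3 or P36 jejunum replicate 2.

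P6 ileum replicate 4, with its GC trend, was the lowest library of its group in all 5 genes. Tap2, which was called in none of the comparisons, stood at 2.50 CPM there, against 26.2 to 27.9 CPM in the other P6 ileum libraries. The constitutive subunits Psmb5 (5.10 CPM) and Psmb6 (22.9 CPM) were also lowest in that library, and Psmb7 (106 CPM) was highest. Without it, the median log2 fold change of the 5 genes with age in the ileum was 2.00, and Psmb8, Psmb9, Psmb10 and Tap1 were still called. Between the P6 regions the median was 1.47 without it, against 1.85 with it. Tap2 was then called (adjusted p = 0.0237) and Tap1 was not (adjusted p = 0.0762). The interaction of Psmb9 and Psmb10 was then called too (adjusted p = 0.0360 and 7.02e-06). Tap1 between the P6 regions (1.02 ± 0.34, adjusted p = 0.0383) was also lost without P6 jejunum replicate 1, 2 or 4 or P6 ileum replicate 1 or 3.

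Neighbouring genes moved together in some clusters and apart in others. Ifit1, Ifit2 and Ifit3 lie within 99.3 kb of chromosome 19 (chr19:34550694-34650009 in mm10), all fell with age, and of the 3 only Ifit2 had a called interaction. Gbp2, Gbp3 and Gbp7 lie within 107.7 kb of chromosome 3 (chr3:142530336-142638008). Their log2 fold changes with age in the jejunum were 4.96 for Gbp2, -1.55 for Gbp3 and -2.35 for Gbp7. Oas1a, Oas2 and Oas3 share 177.2 kb of chromosome 5 (chr5:120730333-120907525), with -0.29 for Oas1a, 3.49 for Oas2 and 2.38 for Oas3. Tap1, Tap2, Psmb8 and Psmb9 lie within 34.2 kb of chromosome 17 (chr17:34182099-34216321). All 4 had positive values with age in both regions, and that of Tap2 was not called.

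Mice differed in the level of the whole set. Over the 16 libraries, the deviations of the 40 genes from their group means had a median pairwise Pearson's r of 0.587, a description in which the points share libraries and depth. At P36 both female mice were above both male mice in both regions for 30 of the 40 genes, against 6.14% of all tested genes. The reverse order in both regions held for 0 of the 40 genes, against 7.89% of all tested genes. The median difference of female minus male means over the 40 genes, as log2 (CPM + 1), was 0.65 in P36 jejunum and 0.81 in P36 ileum. For all tested genes it was -0.01 in both. At P6 the members' median was 0.24 in the jejunum and 0.58 in the ileum, against 0.01 in both for all tested genes. The order of the sexes held in both regions at P6 for 3 of the 40 genes, against 1.71% of all tested genes. As the members vary together, the 30 genes are not separate observations. With 2 mice of each sex no test was run, and sex and anything else these mice share cannot be told apart. The 10 T cell and intraepithelial lymphocyte markers summed to 105.3 and 11.4 CPM in the female and 146.9 and 17.7 CPM in the male P36 jejunum libraries. In P36 ileum they summed to 7.08 and 7.71 CPM in the female and 18.7 and 14.7 CPM in the male libraries. In each region 1 or both of the male libraries thus held more of these markers than both female libraries. Their part in the order of the sexes was not tested.

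**Figure D5:**
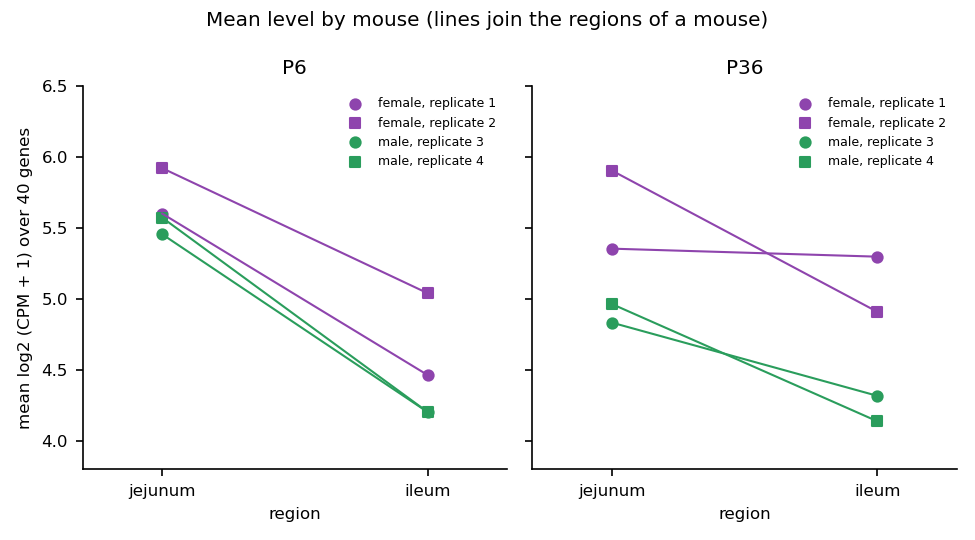
Mean log2 (CPM + 1) of the 40 genes in each library, with a line joining the jejunum and ileum of a mouse (purple female, green male). The jejunum is above the ileum in each mouse, and at P36 both female mice are above both male mice in both regions.

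Interferon transcripts themselves were at or near 0. Of 10 ligand genes, Ifnl2, Ifnl3, Ifnb1, Ifna1, Ifna2, Ifna4 and Ifna5 had 0 counts in all 16 libraries. This allows up to 0.123 to 0.237 CPM per library (3 counts, for counting error only). Ifng had 9 counts in all libraries together, Ifnk 8 and Ifne 2, and none of the 10 was tested.

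Of 9 receptor and kinase genes outside the set, 2 rose and 4 fell with age in each region. Of all tested genes, 24.7% rose and 26.9% fell in the jejunum, and 25.5% and 30.1% in the ileum. Ifnar2, a chain of the type I receptor, had 40.5, 39.5, 33.98 and 41.1 CPM in P6 jejunum and 30.2, 33.1, 29.5 and 40.9 CPM in P6 ileum. After weaning it had 20.6, 15.97, 15.8 and 16.8 CPM in the jejunum and 6.47, 3.86, 4.62 and 3.96 CPM in the ileum. The ages did not overlap, and the changes were -1.16 ± 0.17 (adjusted p = 2.87e-05) in the jejunum and -2.82 ± 0.18 (adjusted p = 3.74e-09) in the ileum. Il10rb, which pairs with Ifnlr1, changed by -0.75 ± 0.14 (adjusted p = 0.000428) and -1.64 ± 0.15 (adjusted p = 1.49e-07). Ifnar1 changed by -0.78 ± 0.13 (adjusted p = 0.000116) and -1.25 ± 0.13 (adjusted p = 9.60e-07).

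Of 13 genes of upstream sensing and regulation, 5 rose and 0 fell in the jejunum (24.7% and 26.9% of all tested genes). In the ileum 7 rose and 1 fell (25.5% and 30.1%). Socs3, a feedback inhibitor of JAK signalling, changed by 2.35 ± 0.32 (adjusted p = 1.69e-05) and 1.86 ± 0.32 (adjusted p = 0.00014). Tmem173 (STING, the adaptor for DNA sensing) changed by 2.13 ± 0.37 (adjusted p = 0.000176) and 2.22 ± 0.36 (adjusted p = 8.04e-05), and the kinase gene Ikbke by 1.02 ± 0.22 (adjusted p = 0.00111) and 0.14 ± 0.22 (adjusted p = 0.594).

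Of 36 tested genes among 39 further interferon-induced genes, 11 rose and 9 fell in the jejunum with age (24.7% and 26.9% of all tested genes). In the ileum 9 rose and 7 fell (25.5% and 30.1%). Between the regions at P6, 7 were called towards the jejunum and 2 towards the ileum (11.1% and 14.8% of all tested genes), and at P36 9 and 0 (8.30% and 7.80%). Ifit1bl1, an Ifit1 relative, moved opposite to Ifit1. It had 12.1, 17.6, 9.82 and 15.5 CPM in P6 jejunum and 10.4, 12.6, 12.5 and 16.8 CPM in P6 ileum, and 131, 159, 107 and 134 CPM in P36 jejunum and 188, 97.6, 115 and 93.5 CPM in P36 ileum. It rose by 3.27 ± 0.25 (adjusted p = 2.95e-08) and 3.24 ± 0.25 (adjusted p = 3.53e-08). Another relative, Ifit1bl2, was lower at P36, as Ifit1 was, and no test is given for it. In the jejunum Ifit1bl2 had 585 to 660 CPM at P6 and 132 to 183 CPM at P36. In the ileum it had 303 to 523 CPM at P6 and 28.9 to 123 CPM at P36. Ido1, a tryptophan-degrading enzyme, had 2 counts in 1 library of each P6 group and 0 in the others. At P36 it had 34.8, 54.8, 26.98 and 24.5 CPM in the jejunum and 35.4, 16.3, 2.94 and 17.9 CPM in the ileum. Ifi27 fell, with log2 fold changes of -1.39 ± 0.17 (adjusted p = 3.91e-06) and -1.87 ± 0.17 (adjusted p = 1.77e-07). The interaction was called for Mx2 (3.24 ± 0.45, adjusted p = 0.000307) and Oas1b (-1.89 ± 0.48, adjusted p = 0.021), which were chosen after their values were seen.

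Of 12 partners of the class I pathway, 2 rose and 1 fell in the jejunum with age (24.7% and 26.9% of all tested genes). In the ileum 4 rose and 1 fell (25.5% and 30.1%). The median log2 fold changes of the 12 partners were 0.18 and 0.26. Psme2, a subunit of the proteasome activator PA28, changed by 1.18 ± 0.12 (adjusted p = 8.70e-07) and 1.34 ± 0.12 (adjusted p = 2.21e-07). Its partner Psme1 changed by 0.22 ± 0.15 (adjusted p = 0.248) and 0.82 ± 0.15 (adjusted p = 0.000303), and the chaperone Canx by 0.74 ± 0.17 (adjusted p = 0.00179) and 0.12 ± 0.17 (adjusted p = 0.582). Of the 3 constitutive catalytic subunits that the immunoproteasome subunits replace, 1 rose in the jejunum and 2 in the ileum (24.7% and 25.5% of all tested genes). Psmb7 changed by 0.60 ± 0.16 (adjusted p = 0.00432) and 0.73 ± 0.16 (adjusted p = 0.00097), Psmb6 by 0.54 ± 0.26 (adjusted p = 0.0993) and 1.03 ± 0.26 (adjusted p = 0.00369), and Psmb5 by 0.41 ± 0.47 (adjusted p = 0.49) and 0.98 ± 0.47 (adjusted p = 0.0884).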

How the data were processed

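Bulk RNA-seq of EDTA-released epithelium from 8 wild-type mice (16 libraries) was analysed. Stranded mRNA libraries (Kapa) were sequenced on an Illumina instrument. The authors deposited raw counts of read pairs per gene, 1 file per library, after trimming (Trimmomatic 0.38), alignment to mm10 with STAR (2.5.3 in the submitters' processing notes) and exon counting by gene with featureCounts (Subread 1.6.3) with the strand-specific setting and the UCSC annotation, multi-mapping reads left out. Groups came from the labels.

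Genes were kept by filterByExpr (13429 of the 18959 with a count), normalised with TMM factors and fitted in edgeR 4.0.16 (R 4.3.3) by quasi-likelihood, with 4 group means over the 16 libraries and contrasts for age in each region, region at each age and their interaction. SE is the size of the log2 fold change divided by the square root of F. CPM used kept-gene totals and TMM factors. Totals ran from 12159237 to 25947276 counts. Intervals and floors cover counting error only. Replicates are separate mice, and their counts differed by more than sampling noise (chi-square per gene 13.2 to 272). The regions of a mouse deviated together (Pearson's r across genes 0.157 to 0.391, against negative means with other mice), and pairing follows from the labels. The fit was tested on simulated data.

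All 40 genes are named. Values in every library are given for up to 4 genes of each role with the smallest adjusted p over the 4 comparisons, for genes with a called interaction, for Nlrc5 (chosen after its values were seen) and, outside the 40, for some of the 3 genes per list with the lowest adjusted p for age. Gene groups were compiled by hand. The members and lists were chosen with earlier results of these data known. Alternatives were DESeq2 1.42.0, limma 3.58.1 with a random mouse term, other scalings, other filters, fewer libraries, a fold threshold, a sex covariate, a mouse block and leaving out each library. A GC correction and leaving out P6 ileum replicates 2 and 4 together were added after seeing the data. No coordinates or promoter of Iigp1 are given, and 1 pathway gene is not reported here.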

Additional observations from a re-analysis of the deposited data

Results flagged for a closer look

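In 9 of 164 sets of 4 libraries (each of the 40 genes, or their mean level, in 1 group), the highest or lowest library stood apart by Dixon's criterion, which chance alone meets in about 1 of 20 sets. The value given is the gap to the nearest library divided by the range of the group.

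P6 ileum replicate 2 held stromal RNA and had the highest macrophage and dendritic cell marker sum of its group. It was highest for Oas2 (3.14 against 2.01 to 2.16 CPM, ratio 0.847), Iigp1 (3.53 against 0.638 to 0.759 CPM, ratio 0.930) and Nlrc5 (2.24 against 0.597 to 0.785 CPM, ratio 0.843). P6 ileum replicate 4, which had the GC trend, was lowest for Tap2 (2.50 against 26.2 to 27.9 CPM, ratio 0.973) and Psmb10 (2.55 against 34.6 to 38.7 CPM, ratio 0.955) and highest for Ddx58 (159.1 against 103.9 to 108 CPM, ratio 0.899). Whether those features of the 2 libraries account for the values was not tested. P36 jejunum replicate 2 was highest for Gbp3 (4.94 against 2.18 to 2.29 CPM, ratio 0.946). P6 jejunum replicate 2 was highest for Gbp7 (59.6 against 41.1 to 43.5 CPM, ratio 0.846). P36 ileum replicate 1 was highest for Psmb10 (195 against 185 to 186 CPM, ratio 0.839).

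The difference between jejunum and ileum changed with age, by the interaction test of edgeR, for 6 genes. The difference at P6 minus that at P36, in log2, was 4.62 for Ifit2, 2.76 for Zbp1, 1.95 for Psmb8, 1.81 for Irf8, 0.83 for Irf1 and -2.06 for Oas2.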

How the results depend on the processing

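Of 83 calls of single members, 57 held in every alternative fit. Over 1572 refits, 1437 kept the call, 135 lost it with the same direction and 0 reversed it. With a log2 fold change beyond 2 required, 3 genes rose and 5 fell in the jejunum with age, 9 rose and 4 fell in the ileum, 7 were higher in P6 jejunum and 0 in P36 jejunum. Leaving out 1 library at a time, the count that rose in the jejunum ranged from 5 (without P36 jejunum replicate 2) to 8. The count higher in P6 ileum ranged from 0 (without P6 ileum replicate 2) to 1, that in P36 jejunum from 2 to 16 and that of the interaction from 3 to 8. The other counts stayed within 1.5 times. Shares of all tested genes are not given for the fits without 1 library.

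The 2 regions came from the same mice. With the mouse as a fixed replicate block, 2 genes were higher in P6 ileum and 15 in P36 jejunum, and with a random replicate block (limma) 0 and 15. The fixed block could not be fitted to the comparisons of ages. The block changed no other count beyond 1.5 times. GC correction with the mouse as a replicate block gave 2 and 24, and an interaction count of 14. GC correction alone gave 8 in P36 jejunum, DESeq2 11 and a sex covariate 13. Shares of all genes are not given for GC correction alone, the sex covariate, the random block or library totals. Scaling by library totals gave 2 in P6 ileum and moved the median of all genes by -0.29 between the P6 regions and -0.14 between the P36 regions. Without P6 ileum replicates 2 and 4 the P6 ileum count was 0. The cause of these differences was not tested. In a window of the 250 bases before the start alone, the ISRE core stood in 14 and the GAS letters in 9 genes.

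The regional and age differences of the mean level over the 40 genes moved by less than 1 SD between replicates under each scale tried. With 2 mice of each sex at each age, the smallest p of an exact test between the sexes is above 0.05, and in P6 jejunum Gbp2 rested on 2 to 6 counts per library.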

Other observations

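In P6 jejunum, Irgm2 and Xaf1 were higher in replicates 1 and 3 than in replicates 2 and 4. Irgm2 had 73.5, 32.9, 65.7 and 28.4 CPM and Xaf1 had 91.1, 60.0, 77.3 and 43.0 CPM. The identifiers of the P6 mice share a prefix within each of these pairs, whose meaning the labels do not give, and the genes were chosen after their values were seen, with no test.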
